A study of Homo sapiens with 15 samples.

Results

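The comparison described here is the mutant of full-length ZBTB18 (FL-mut, 3 libraries) against the unmutated full-length protein (FL, 3 libraries), so it rests on 6 of the 15 libraries of the study and was chosen by the construct named in the labels. All libraries came from SNB19, a human glioblastoma cell line grown in serum-containing medium and transduced with lentivirus. FL cells received ZBTB18 in the pCHMWS vector, FL-mut cells received its mutated version in the same vector, and the other 9 libraries carried the empty vector (EV), a short form (SF-Nte) or the mutant of that short form (SF-mut), each in 3 libraries. The labels name neither the mutated residues, the time after transduction nor whether cells were pooled or clonal, and both groups compared here carry a ZBTB18 construct, so neither is an untreated state. They also do not say whether replicates were separate cultures, so a p-value here speaks only of how far these libraries spread, which may be technical. Polyadenylated RNA was read as amplified cDNA on the Oxford Nanopore platform and counted per gene. Total counts were 803316 to 1393060 in FL and 865997 to 1313573 in FL-mut, and 6767 of 18485 genes had enough counts for testing.

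ZBTB18, also called RP58 or ZNF238, is a transcriptional repressor with an amino-terminal BTB domain, through which such proteins pair and recruit other factors, and carboxy-terminal zinc fingers that bind DNA. It is known for its part in the differentiation of cortical neurons, and in glioblastoma it is known as a repressor of mesenchymal genes whose own expression is often lost. A mutant set against the intact protein in the same cell line shows which transcript levels differ between the constructs, with vector and mode of transduction shared. The level of the construct varied between libraries, as given below.

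The line was first read by its markers. Summed over 13 glioma and astroglial markers, levels were 294.8 to 741.4 CPM (a gene's share of a library's total count, scaled by the TMM method) in FL and 663.2 to 1038 CPM in FL-mut, most of it VIM and CD44 with FABP7 in FL. The defining astrocyte marker GFAP reached at most 2.08 CPM, S100B at most 4.16 CPM and PTPRZ1 at most 0.694 CPM, so these were near absent in both groups. Summed markers of immune cells (6.94 to 21.4 CPM), endothelial cells (1.13 to 24.2 CPM) and neurons (1.24 to 20.2 CPM) were low, with ITGAM and CDH5 at 0 in all 6 libraries. Summed epithelial markers were 185.8 to 335.7 CPM in FL, almost all of it MUC1, and 9.05 to 50.5 CPM in FL-mut. In FL-mut replicates 1 to 3 the sums were 50.5 CPM, 9.05 CPM and 22.1 CPM, with MUC1 at 48.5 CPM, 0 CPM and 13.3 CPM. CDH1 was at 0 throughout. FL-mut replicate 2 was the least like FL: over the 6767 genes its log2 levels correlated with the FL libraries at 0.682 to 0.714, against 0.803 to 0.861 for the other FL-mut libraries. Its GC-rich transcripts lay high, as described further on. Within FL-mut it correlated with replicate 3 at 0.833 and with replicate 1 at 0.736, and replicates 1 and 3 correlated at 0.831. FL-mut replicate 1 correlated with FL replicate 1 at 0.861, above its values within FL-mut.

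ZBTB18 itself (chromosome 1, 244048939 to 244057476, plus strand, GRCh38) was at 635 CPM, 3067 CPM and 623 CPM in FL replicates 1 to 3, and at 907 CPM, 2800 CPM and 6858 CPM in FL-mut replicates 1 to 3. The groups overlapped, and the log2 fold change of 1.29 ± 0.73 (SE) did not pass (edgeR unadjusted p = 0.0985, adjusted p = 0.50). It moved to 0.34 without FL-mut replicate 3 and to 2.47 without FL replicate 2, and it passed only where no filter on low counts was applied (adjusted p = 0.0019). Counts per gene cannot tell the vector's transcript from the cell's own.

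The test called 6 genes between FL-mut and FL (0.0887% of 6767), of which 4 were higher with the mutant (0.0591%) and 2 lower (0.0296%). The higher genes were S100A6 and S100A16, of the S100 family of EF-hand calcium-binding proteins, the galectin gene LGALS1, and HMGN3, whose protein binds nucleosomes. The lower genes were ZMYM3, a zinc finger component of LSD1-containing corepressor complexes, and SLC35D2, a nucleotide sugar transporter of the Golgi. Without adjustment, 821 genes had p below 0.05 (12.1%), 494 higher (7.3%) and 327 lower (4.83%). In 1246 genes (18.4%) the FL and FL-mut libraries did not overlap. The median log2 fold change over all tested genes was 0.02, with 3462 genes above 0 and 3303 below.

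**Figure D1:**
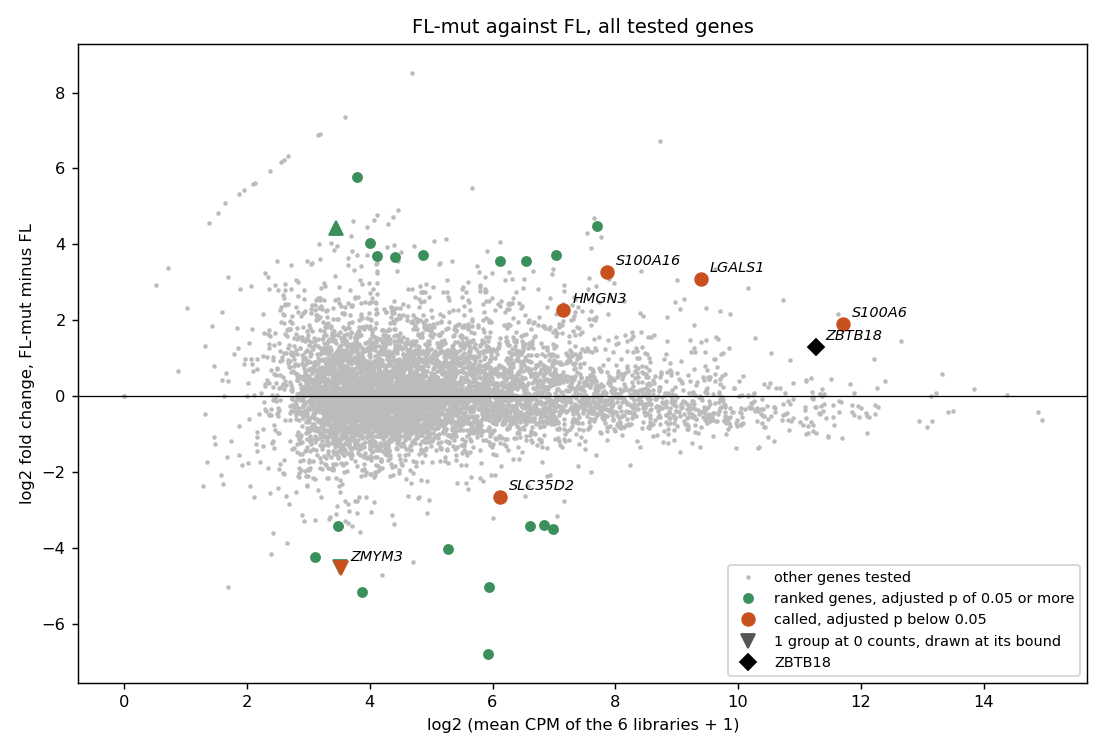
Each point is 1 of the genes tested between FL-mut and FL, by log2 mean CPM of the 6 libraries (x axis) and fitted log2 fold change (y axis). Called or ranked genes at 0 counts in 1 group are drawn at their bound. Other such genes are drawn at the fitted value, except FDXR and PDGFRA, which are not drawn. Called genes are orange, 4 above 0 and ZMYM3 and SLC35D2 below, and ZBTB18 (black, 1.29) had adjusted p = 0.50.

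Windows around the start sites of 3 called genes are shown because S100A6 and S100A16 lie near each other in the S100 cluster and, with HMGN3, were higher with the mutant. They run 5′ to 3′ from 250 bases before the start to 50 bases after it and come from RefSeq (build GRCh38.p14), for S100A6 at chr1:153535942-153536241, for S100A16 at chr1:153613088-153613387 (the outer of 2 start sites listed) and for HMGN3 at chr6:79234633-79234932, all on the minus strand. Capitals mark CATCTG or its reverse complement CAGATG, the core of the motif bound by ZBTB18.
S100A6: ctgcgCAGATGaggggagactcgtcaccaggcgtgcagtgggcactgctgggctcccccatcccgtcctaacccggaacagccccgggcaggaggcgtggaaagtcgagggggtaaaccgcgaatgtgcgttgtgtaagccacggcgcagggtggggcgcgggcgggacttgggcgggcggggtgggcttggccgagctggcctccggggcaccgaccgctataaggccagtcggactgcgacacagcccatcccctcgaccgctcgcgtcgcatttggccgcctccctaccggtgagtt
S100A16: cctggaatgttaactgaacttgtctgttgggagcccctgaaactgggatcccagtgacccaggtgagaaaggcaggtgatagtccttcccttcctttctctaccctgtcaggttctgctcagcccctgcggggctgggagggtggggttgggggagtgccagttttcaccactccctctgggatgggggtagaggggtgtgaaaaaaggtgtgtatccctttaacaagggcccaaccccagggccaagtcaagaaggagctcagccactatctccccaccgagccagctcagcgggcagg
HMGN3: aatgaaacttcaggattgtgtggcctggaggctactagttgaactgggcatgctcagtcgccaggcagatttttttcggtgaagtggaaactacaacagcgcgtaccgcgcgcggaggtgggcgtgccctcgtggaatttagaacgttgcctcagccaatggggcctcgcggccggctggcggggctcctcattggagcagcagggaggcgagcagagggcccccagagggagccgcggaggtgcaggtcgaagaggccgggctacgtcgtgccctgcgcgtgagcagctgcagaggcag
The S100A6 window holds 1 match, and those of S100A16 and HMGN3 hold none. Over both strands, the core was found in 14.7% of 35116 RefSeq windows of this length, and the longer ACATCTG, which contains it, in 3.40%. Of the 8 windows that the table lists for 5 called genes (S100A6, S100A16, HMGN3, SLC35D2 and ZMYM3), 1 held the core and 0 held the longer form. A match describes these letters only, and no binding was measured.

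S100A6 (chromosome 1, 153534599 to 153536244, minus strand, GRCh38) encodes calcyclin, a small calcium sensor. Its level was 1931 CPM, 1208 CPM and 1109 CPM in the FL libraries and 5698 CPM, 5984 CPM and 4106 CPM in the FL-mut libraries, so that the lowest FL-mut library lay above the highest FL library. The log2 fold change was 1.89 ± 0.23 (edgeR adjusted p = 0.0019). The gene passed in each of the 6 fits that left out 1 library, but with a correction for GC content and transcript length it fell short (log2 fold change 1.45, adjusted p = 0.31). In EV the level was 12730 to 13750 CPM, above both groups.

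S100A16 (chromosome 1, 153606886 to 153613145, minus strand) is a neighbour of S100A6 in the cluster. It stood at 75.6 CPM, 36.1 CPM and 17.4 CPM in FL and at 297.9 CPM, 677.9 CPM and 290.5 CPM in FL-mut, with FL-mut replicate 2 the highest. The groups did not overlap, and the log2 fold change was 3.27 ± 0.56 (edgeR adjusted p = 0.030). The call was lost without FL replicate 2 or 3 or without FL-mut replicate 2 or 3 (adjusted p up to 0.183).

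HMGN3 (chromosome 6, 79201245 to 79234738, minus strand) belongs to a family that binds nucleosomes and opens chromatin fibres. Its libraries lay at 43.7 CPM, 62.2 CPM and 39.7 CPM in FL and at 209 CPM, 236.5 CPM and 258.8 CPM in FL-mut. Both groups were tight and far apart, with a log2 fold change of 2.28 ± 0.28 (edgeR adjusted p = 0.0019). It passed in each of the 6 fits that left out 1 library, and with the GC and length correction it was 2.46 (adjusted p = 0.00065).

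LGALS1 (chromosome 22, 37675608 to 37679806, plus strand) encodes galectin-1, a secreted lectin that binds beta-galactosides. FL libraries held 201.8 CPM, 83.3 CPM and 138 CPM, and FL-mut libraries 617 CPM, 1969 CPM and 1010 CPM. The groups did not overlap although the FL-mut libraries spread widely, and the log2 fold change was 3.08 ± 0.45 (edgeR adjusted p = 0.0096). Without FL replicate 2 or without FL replicate 3 the call was lost (adjusted p up to 0.0724).

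ZMYM3 (chromosome X, 71239624 to 71255146, minus strand) had 43, 10 and 22 counts in the FL libraries and 0 in each FL-mut library. In CPM these were 29.8, 12.4 and 21.3 against 0. Set against 3 counts over the FL-mut group (0.929 CPM), the level was at least 22.8-fold lower with the mutant (edgeR adjusted p = 0.020). All 9 libraries of EV and the short forms held the transcript, from 8.002 CPM to 38.96 CPM. The counts were few, and the call was kept in 2 of the 6 fits that left out 1 library, those without FL replicate 1 and without FL replicate 2.

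SLC35D2 (chromosome 9, 96313444 to 96383710, minus strand) stood at 99.9 CPM, 156.7 CPM and 98.7 CPM in FL and at 18.2 CPM, 27.2 CPM and 11.1 CPM in FL-mut. The groups did not overlap, and the log2 fold change was -2.66 ± 0.44 (edgeR adjusted p = 0.025). EV libraries lay between the groups, at 57.01 to 64.99 CPM. The call was kept without FL replicate 1 or without FL-mut replicate 2, and lost without any other 1 of the 6 libraries (adjusted p up to 0.162).

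**Figure D2:**
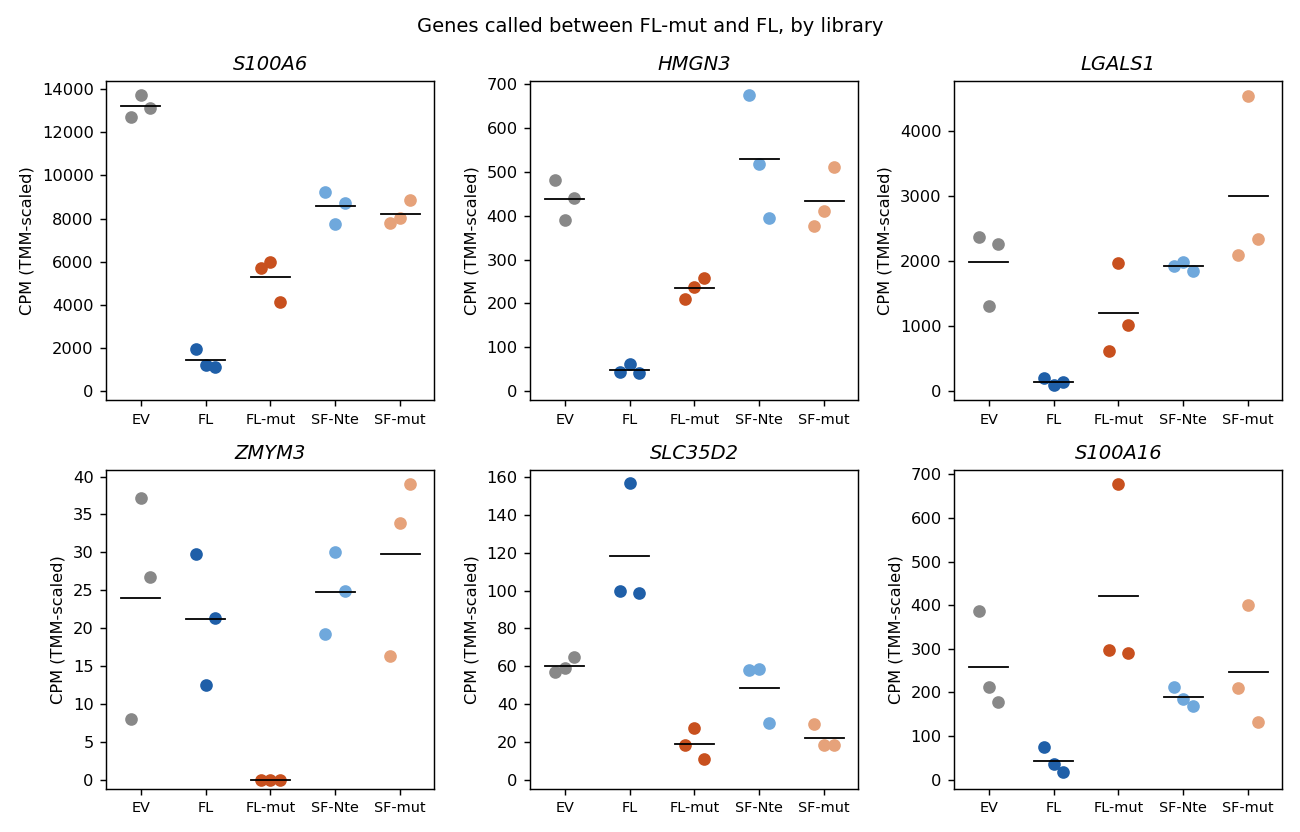
Level of the 6 called genes in CPM (y axis, linear) in every library of the 5 groups (x axis), with points for libraries, left to right in the order of replicate number, and black lines for group means of 3. S100A6 and HMGN3 show FL-mut libraries above FL and below EV, SLC35D2 shows FL above EV, and ZMYM3 is at 0 in FL-mut alone.

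Levels of the construct and of the called genes can be read within single libraries. FL replicate 2 carried 3067 CPM of ZBTB18 with 1208 CPM of S100A6 and 62.2 CPM of HMGN3. FL-mut replicate 1 carried less ZBTB18, at 907 CPM, with 5698 CPM of S100A6 and 209 CPM of HMGN3. FL replicates 1 and 3, with 635 CPM and 623 CPM of ZBTB18, had S100A6 at 1931 CPM and 1109 CPM. FL-mut replicates 2 and 3 carried 2800 CPM and 6858 CPM of ZBTB18, with S100A6 at 5984 CPM and 4106 CPM. Their HMGN3 levels were 236.5 CPM and 258.8 CPM. The construct's transcript overlapped between the groups. S100A6 and HMGN3 are shown because they were called between these same libraries, so their lack of overlap is no separate result. The part of the construct's level in these differences was not tested.

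Each group's own contrast with EV shares libraries with the others, so the values are only placed side by side. S100A6 had a log2 fold change of -3.22 for FL against EV and of -1.33 for FL-mut against EV. HMGN3 had -3.17 and -0.90, and LGALS1 -3.80 and -0.72, in the same order. S100A16 had -2.57 and 0.70, and SLC35D2 0.97 and -1.69. ZMYM3 had -0.15 for FL against EV, and FL-mut held no count. Against EV, edgeR called 21 genes with FL (0.31%) and 13 with FL-mut (0.192%).

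The same mutation label exists for the short form, whose libraries are separate from those above. These libraries are shallower, at 315693 to 603155 counts, and barcode names with an added suffix for SF-mut show that it may have been handled separately, which cannot be told apart from the construct. In SF-mut against SF-Nte edgeR called 0 genes, with 564 at unadjusted p below 0.05 (8.33%). ZBTB18 itself was at 199.5 to 470 CPM in SF-Nte and 853 to 3631 CPM in SF-mut, without overlap. Its log2 fold change there was 2.57 ± 0.77 (edgeR unadjusted p = 0.0044, adjusted p = 0.57). The part of the construct's level in the short-form contrast and in the interaction was not tested. S100A6 was at 9240 CPM, 7727 CPM and 8726 CPM in SF-Nte and at 7781 CPM, 8008 CPM and 8843 CPM in SF-mut, a log2 fold change of -0.06 ± 0.22 with overlapping groups. HMGN3 was at 676.1 CPM, 519.4 CPM and 395.9 CPM in SF-Nte and 377.5 CPM, 409.9 CPM and 512.6 CPM in SF-mut, a log2 fold change of -0.29 ± 0.27. For these genes the mutation effect differed between the forms in the test of the interaction, by 1.95 ± 0.31 for S100A6 (edgeR adjusted p = 0.043) and by 2.57 ± 0.39 for HMGN3 (adjusted p = 0.039). These 2 genes were the ones called of 6767 (0.0296%), with 315 at unadjusted p below 0.05 (4.65%). The S100A6 interaction was lost with the GC and length correction (1.76, adjusted p = 0.89), and of 12 fits without 1 library S100A6 passed in 1 and HMGN3 in 2.

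The other called genes gave no interaction past the threshold in the main fit. In other settings, ZMYM3 passed with DESeq2 (adjusted p = 0.0039). S100A16 passed in edgeR with a replicate block and the GC and length correction (adjusted p = 0.034). With no filter on low counts LGALS1, ZMYM3 and S100A16 passed in edgeR. The values below are those of the main fit. LGALS1 had a short-form log2 fold change of 0.64 ± 0.41 and an interaction of 2.44 ± 0.59 (edgeR adjusted p = 0.57). S100A16 had 0.38 ± 0.52 in the short form and an interaction of 2.89 ± 0.75 (adjusted p = 0.64). SLC35D2 lay in the same direction in both forms: it was at 57.8 CPM, 58.3 CPM and 29.9 CPM in SF-Nte and 29.4 CPM, 18.5 CPM and 18.45 CPM in SF-mut, a log2 fold change of -1.12 ± 0.45 (edgeR unadjusted p = 0.024, adjusted p = 0.57). ZMYM3 was at 19.3 to 30.1 CPM in SF-Nte and 16.3 to 38.96 CPM in SF-mut, and its interaction had adjusted p = 0.12.

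**Figure D3:**
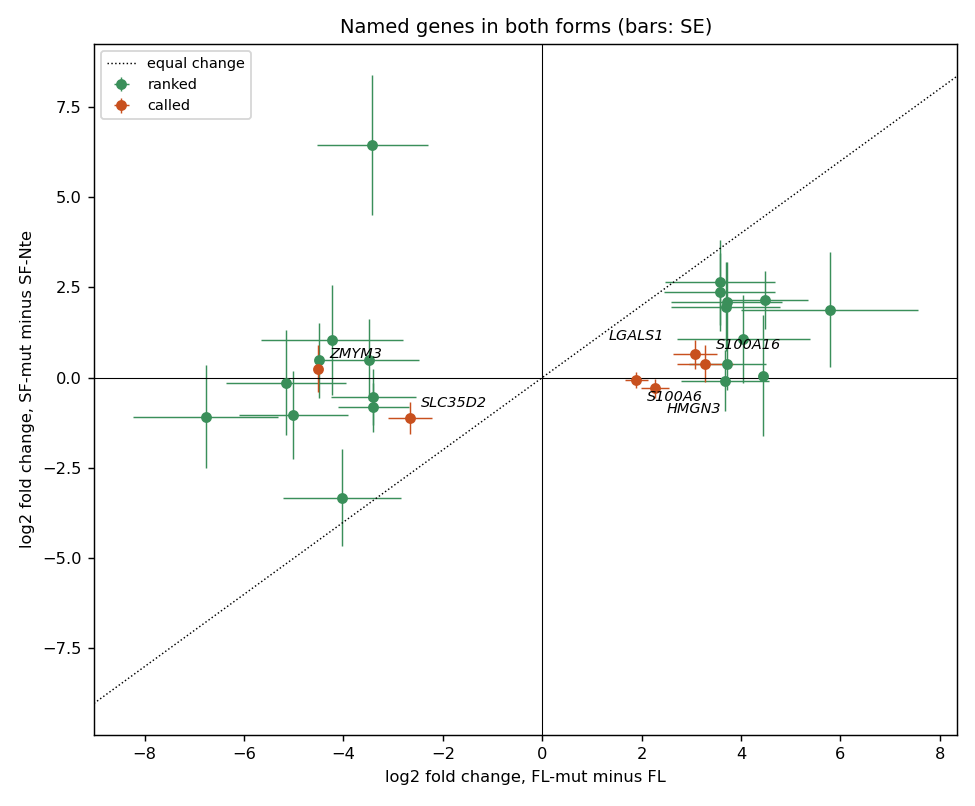
Log2 fold change of FL-mut against FL (x axis) and of SF-mut against SF-Nte (y axis) for the 6 called genes (orange) and the 20 ranked genes (green), with bars of 1 SE and genes at 0 counts in FL or FL-mut drawn at their bound without an x bar (SDF4, at 0 counts in SF-Nte, keeps its fitted y value). S100A6 (1.89 and -0.06) and HMGN3 (2.28 and -0.29) lie near 0 on the y axis, and SLC35D2 (-2.66 and -1.12) lies below 0 on both axes.

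Listed next are genes that did not pass the adjusted test but had unadjusted p below 0.01. Their groups did not overlap, and each library on the higher side held 10 counts or more. They numbered 167, with 80 higher and 87 lower, and the 10 largest in each direction are given as values. PLAUR, the receptor of urokinase, was at 15.3 CPM, 16.2 CPM and 21.3 CPM in FL and at 139 CPM, 707 CPM and 349 CPM in FL-mut, a log2 fold change of 4.49 ± 0.86 (edgeR adjusted p = 0.084). It passed with the GC and length correction (adjusted p = 0.018) and without FL-mut replicate 1 (0.039). EFNA5, an ephrin ligand, had 0 counts in FL and 22.2 CPM, 18.1 CPM and 19.2 CPM in FL-mut, 21.7-fold higher when FL is set at 3 counts (edgeR adjusted p = 0.16). Its counts in the 6 libraries were all even, a feature of the deposited table with no stated reason. For this gene 3 counts may therefore be too low a floor, and the fold difference too large. No library outside FL-mut held more than 4.101 CPM of EFNA5, so it entered the test through FL-mut alone. Because the ranking also asks for counts on the higher side, such a pattern is partly selected and is no separate result. SLC7A5, the light chain of a large neutral amino acid transporter, was at 5.55 CPM, 2.49 CPM and 0 CPM in FL and at 20.2 CPM, 70.2 CPM and 23.6 CPM in FL-mut (log2 fold change 3.67 ± 0.88, adjusted p = 0.17). VKORC1, the vitamin K epoxide reductase subunit, was at 12.6 to 16.2 CPM in FL and 50.5 to 249 CPM in FL-mut. The others were GLT8D2, AGAP3, AC241585.2, NDUFA10, CENPU and ZNHIT1, with fitted log2 fold changes of 3.58 to 5.79. In 9 of these 10 genes FL-mut replicate 2 was the highest library, as in NDUFA10, a complex I subunit, with 578 CPM there against 64.6 CPM and 81.1 CPM in the other FL-mut libraries.

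Among the lower ranked genes, NREP, known for its part in neuronal regeneration, was at 141.5 CPM, 73.4 CPM and 407.5 CPM in FL and at 25.3 CPM, 15.8 CPM and 17.7 CPM in FL-mut (log2 fold change -3.40 ± 0.71, edgeR adjusted p = 0.11). FABP7, the brain-type fatty acid binding protein of radial glia, was at 121 CPM, 43.5 CPM and 366 CPM in FL and at 22.2 CPM, 3.40 CPM and 23.6 CPM in FL-mut (log2 fold change -3.40 ± 0.85, adjusted p = 0.21). Both spread widely within FL, with replicate 3 highest. MUC1, a membrane mucin, was at 335 CPM, 194 CPM and 166.5 CPM in FL and at 48.5 CPM, 0 CPM and 13.3 CPM in FL-mut (log2 fold change -3.48 ± 1.01, adjusted p = 0.27), and it overlaps AL713999.1 on the same strand, so reads of both may be mixed. VAMP8, a SNARE protein of endosomes, was at 37.5 CPM, 243.8 CPM and 72.6 CPM in FL and at most 5.90 CPM in FL-mut. CFI, the complement factor I protease, was at 40.2 CPM, 59.7 CPM and 257.5 CPM in FL and at 3.03 CPM, 0 CPM and 0 CPM in FL-mut. RDM1 held 15.3 to 29.9 CPM in FL and 0 counts in FL-mut, at least 22.4-fold lower (adjusted p = 0.21). PI15, MFSD6, CRYAB and SDF4 complete the list, with fitted log2 fold changes of -3.42 to -5.16. PI15 and MFSD6 entered the test through FL alone, with at most 4.98 CPM and 9.794 CPM in any library of the other groups. CRYAB, a small heat shock protein, was also lower in SF-mut than in SF-Nte (-3.33 ± 1.34, unadjusted p = 0.025), whereas SDF4 ran the other way there, with 0 counts in the 3 SF-Nte libraries and 9, 3 and 5 counts in SF-mut (unadjusted p = 0.0052).

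Of the 10 genes ranked higher, 9 had the same direction in the short form, 3 of them at unadjusted p below 0.05 (PLAUR, ZNHIT1 and VKORC1). Of the 10 ranked lower, 6 had the same direction, 1 of them at that level. Some of these directions rest on short-form levels near 0. EFNA5 had 0.06 ± 1.68, with means of 1.28 CPM in SF-Nte and 1.37 CPM in SF-mut. PI15 had -0.14 ± 1.45, with means of 2.29 CPM and 1.63 CPM. Over all 6767 genes, 4183 had the same direction in both contrasts, which share no library. Of the 821 genes with unadjusted p below 0.05 in FL-mut against FL, 650 had the same direction in the short form, 140 of them at p below 0.05, and 171 the opposite direction, 11 of them at that level. SF-mut replicate 2 was the library of its group whose GC-rich transcripts lay highest, as FL-mut replicate 2 was in FL-mut, and the part of GC content in this shared direction was not tested.

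GC content moved with the comparison. Over tested genes with an annotated transcript (98.3%), the median log2 fold change was -0.15 in the tertile of lowest GC content (31.5% to 42.8%), -0.06 in the middle tertile and 0.42 in the highest (51.04% to 71.25%). In the highest tertile, 307 genes were higher in FL-mut without overlap and 101 lower, against 135 and 278 in the lowest. Relative to the mean of the 6 libraries, GC-rich genes deviated by 0.56 in FL-mut replicate 2, by 0.19 in replicate 3 and by -0.28 in FL replicate 3, on the log2 scale. Transcript length moved with it too, with medians of 0.15, 0.10 and -0.13 from the shortest to the longest tertile. In the shortest tertile (174 to 2330 bases) 270 genes were higher and 146 lower at unadjusted p below 0.05, against 74 and 95 in the longest. Of the 6 called genes, 5 belong to the shortest tertile, and ZMYM3 (6067 bases) to the longest. By GC content, 4 of the 6 belong to the highest tertile, namely S100A6 (60.2%), LGALS1 (58.9%), S100A16 (56.5%) and ZMYM3 (55.1%), while HMGN3 has 43.5% and SLC35D2 48.1%. The part of GC content and length in the list results below was not tested beyond the values given with the GC and length correction. The counts of members in those lists stand against these shares of all tested genes. Without overlap, 8.97% were higher and 9.44% lower. At unadjusted p below 0.05 in edgeR, 7.3% were higher and 4.83% lower. DESeq2 called 116 of the 6767, 62 higher and 54 lower.

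**Figure D4:**
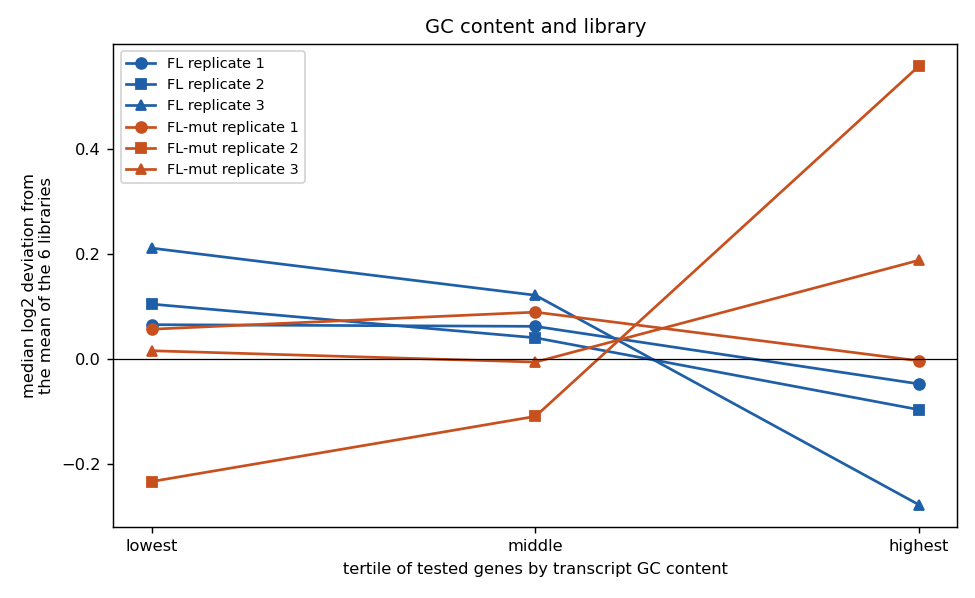
Median log2 deviation from the mean of the 6 libraries (y axis) for tertiles of the tested genes by transcript GC content (x axis), 1 line per library. FL-mut replicate 2 runs from -0.23 in the lowest to 0.56 in the highest, and FL replicate 3 runs the other way, from 0.21 to -0.28.

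Most tested members of the S100 family lay higher with the mutant, 8 of 10 above 0. Of 10 tested members, 2 rose and 0 fell, and 6 were higher without overlap (8.97% of all tested genes were) and 0 lower (9.44%). The median log2 fold change of the list was 1.12, against 0.02 over all genes, and 0.85 with S100A3, at 0 counts in FL and 0.737 to 2.02 CPM in FL-mut, set at its bound. S100A4, linked to cell motility, was at 13.2 CPM, 7.46 CPM and 36.8 CPM in FL and at 53.5 CPM, 53.2 CPM and 36.9 CPM in FL-mut, so its groups all but touched (1.30 ± 0.49, edgeR adjusted p = 0.33). S100A10, the partner of annexin A2, was at 21.3 to 42.3 CPM in FL and at 70.7 CPM, 574.9 CPM and 109.9 CPM in FL-mut (2.94 ± 0.94, adjusted p = 0.31), and DESeq2 called it in addition to the 2. Leaving out FL-mut replicate 2 gave a list median of 1.01, and the GC and length correction gave 1.03.

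Among 11 tested galectins and annexins, LGALS1 rose and 0 fell, and the median was 0.19 (-0.07 without FL-mut replicate 2). ANXA5, a calcium-dependent phospholipid binder, was at 159.5 CPM, 427.9 CPM and 217.8 CPM in FL and at 557.5 CPM, 1377 CPM and 1001 CPM in FL-mut (1.87 ± 0.43, edgeR adjusted p = 0.16), a difference that DESeq2 called. ANXA2 was at 7441 to 8709 CPM in FL and 11430 to 13940 CPM in FL-mut (0.60 ± 0.26). ANXA1 lay the other way, at 4500 to 8163 CPM in FL and 2244 to 3491 CPM in FL-mut (-0.97 ± 0.31, adjusted p = 0.32). Without overlap, 3 of the 11 were higher (8.97% of all tested genes were) and 1 lower (9.44%), the latter near the share of all tested genes.

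Of 10 tested high-mobility-group chromatin genes, HMGN3 rose, and no other was free of overlap (median 0.26, and -0.03 without FL-mut replicate 1). HMGN2, a close relative, was at 123 to 220.5 CPM in FL and at 219 CPM, 1734 CPM and 909.8 CPM in FL-mut (2.55 ± 0.88, edgeR adjusted p = 0.32). HMGB2, a chromatin protein of dividing cells, was at 503.8 to 1042 CPM in FL and 424.4 to 525.1 CPM in FL-mut (-0.76 ± 0.27, adjusted p = 0.33).

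Among 14 tested genes of the CtBP, LSD1 and corepressor complexes, with which ZBTB18 is known to work, ZMYM3 fell and no gene rose, and the list median was -0.30. NCOR1, a nuclear receptor corepressor, was the other member without overlap, at 63.4 to 89.5 CPM in FL and 38.5 to 59.7 CPM in FL-mut (-0.60 ± 0.43, edgeR adjusted p = 0.61). SIN3A, a scaffold of histone deacetylase complexes, and ZMYM2, the relative of ZMYM3, overlapped between the groups, and ZMYM2 had counts in FL replicate 1 and FL-mut replicate 3 alone.

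Mesenchymal glioblastoma genes, a class known to be repressed by ZBTB18, had 32 tested members. Of these S100A6 and LGALS1 rose, 0 fell, 8 were higher without overlap (8.97% of all tested genes were) and 4 lower (9.44%), and the median was 0.34, from 0.16 to 0.76 over the settings. At unadjusted p below 0.05 in edgeR, 10 were higher and 3 lower (7.3% and 4.83% of all tested genes were). S100A6 and LGALS1 are also counted in the S100 and galectin lists above. The S100A6 call is the one lost with the GC and length correction (adjusted p = 0.31). CD44, the hyaluronan receptor, was at 120 CPM, 48.5 CPM and 51.3 CPM in FL and at 267.6 CPM, 272.8 CPM and 369.4 CPM in FL-mut (2.04 ± 0.65, edgeR adjusted p = 0.31). Its FL-mut libraries were tight and all above FL.

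Integrins and adhesion receptors had 15 tested members, with 0 called by edgeR and 2 by DESeq2 (CD9 and ITGA3), and a median of 0.70. Without overlap, 4 were higher and 1 lower (8.97% and 9.44% of all tested genes were). At unadjusted p below 0.05, 3 were higher and 0 lower. CD9, a tetraspanin, was at 36.8 CPM, 111.9 CPM and 53.2 CPM in FL and at 157.5 CPM, 487.8 CPM and 589.8 CPM in FL-mut (2.62 ± 0.56, edgeR adjusted p = 0.11), and it passed without FL-mut replicate 1 (adjusted p = 0.039). ITGA3, an integrin subunit for laminin, was at 7.63 to 13.7 CPM in FL and 38.3 to 116.6 CPM in FL-mut (2.53 ± 0.54, adjusted p = 0.11). The list median was 0.23 without FL-mut replicate 2 and 0.13 with the GC and length correction.

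Of 20 tested matrix and protease genes, edgeR called 0 (4 higher at unadjusted p below 0.05) and DESeq2 2, PLAUR and P4HA1 (median 0.38). Without overlap, 5 were higher and 0 lower (8.97% and 9.44% of all tested genes were). P4HA1, a prolyl hydroxylase of collagen, was at 6.94 CPM, 12.4 CPM and 48.4 CPM in FL and at 65.6 CPM, 104.1 CPM and 103.2 CPM in FL-mut (2.01 ± 0.59, edgeR adjusted p = 0.27). Among 24 tested actin-binding LIM, transgelin and tropomyosin genes, edgeR called 0 (4 higher and 3 lower at unadjusted p below 0.05), DESeq2 called CSRP1, TPM4 and TMSB10, and 5 were higher and 4 lower without overlap. CSRP1, a LIM-domain protein, was at 9.71 CPM, 6.22 CPM and 0 CPM in FL and at 25.3 CPM, 112 CPM and 51.6 CPM in FL-mut (3.49 ± 0.79, adjusted p = 0.15). TMSB10, which binds actin monomers, was at 7942 to 13410 CPM in FL and 5428 to 6732 CPM in FL-mut (-0.80 ± 0.23, adjusted p = 0.27). The median of this list was 0.37, and -0.07 with the GC and length correction. Of 14 tested YAP and TGF-beta targets, edgeR called 0 (3 higher and 2 lower at unadjusted p below 0.05), DESeq2 called TPM4, and 2 each were higher and lower without overlap (median -0.30, from -0.65 to 0.11 over the settings), among them TPM4, at 8.71 to 14.9 CPM in FL and 29.5 to 66.8 CPM in FL-mut, and ANKRD1, at 11.8 to 22.4 CPM in FL and 4.42 to 8.08 CPM in FL-mut.

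All 6 tested genes of the NF-kB and cytokine list had fold changes above 0, with 0 called by edgeR or DESeq2, 3 at unadjusted p below 0.05 and a median of 1.40. Without overlap, 2 were higher (8.97% of all tested genes were). CXCL8, the neutrophil chemokine, was at 9.02 CPM, 22.4 CPM and 6.78 CPM in FL and at 102 CPM, 156.2 CPM and 30.2 CPM in FL-mut (2.93 ± 1.10, edgeR adjusted p = 0.33). TNFRSF12A, the TWEAK receptor, was at 36.8 to 54.7 CPM in FL and 59.7 to 220.7 CPM in FL-mut (1.48 ± 0.63). SOD2, the mitochondrial superoxide dismutase, overlapped between the groups.

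**Figure D5:**
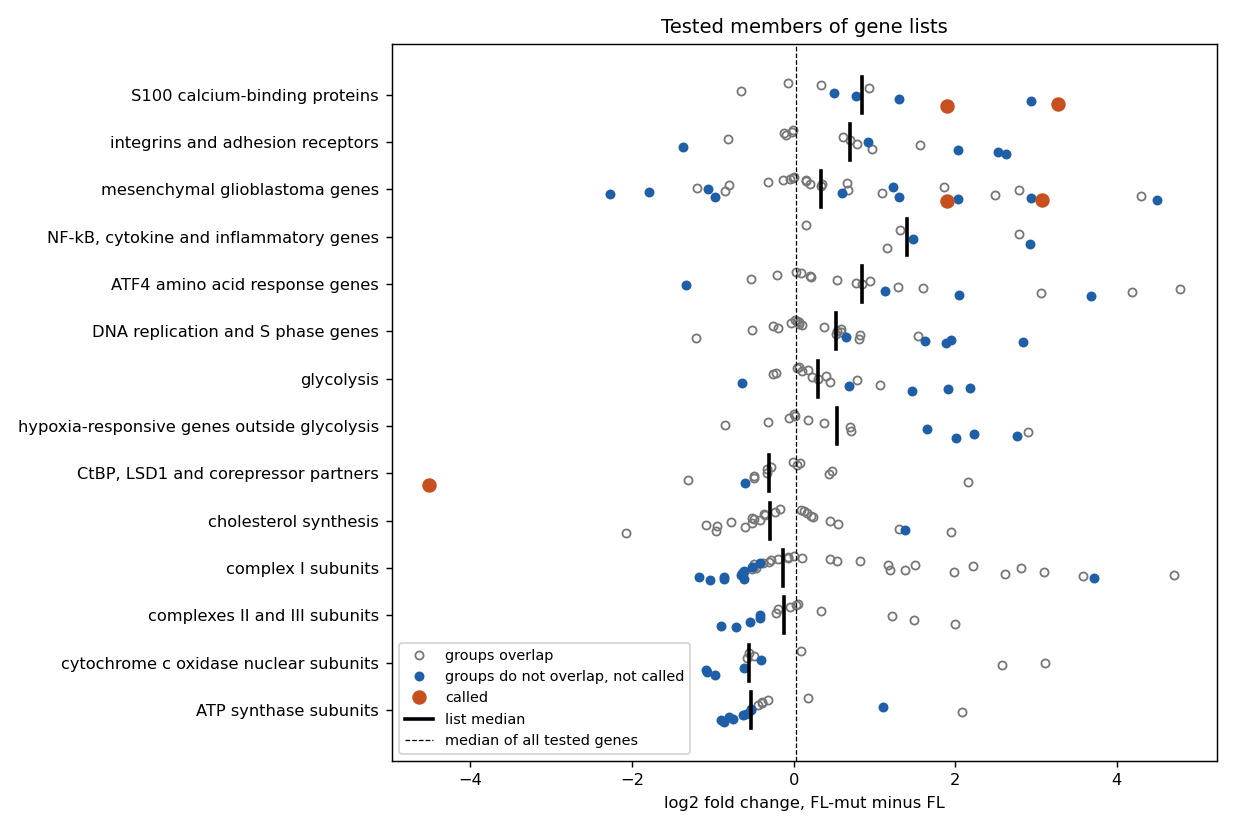
Log2 fold change of FL-mut against FL (x axis) for each tested member of 14 gene lists, with members at 0 counts in 1 group at their bound, black bars for list medians and a dashed line at 0.02, the median of all tested genes. S100 genes sit mostly to the right (median 0.85 with S100A3 at its bound), and cytochrome c oxidase (-0.55) and ATP synthase (-0.53) subunits mostly to the left.

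Lipid synthesis was read because ZBTB18 is known to act on SREBP targets. Of 24 tested cholesterol synthesis genes, 0 were called by edgeR or DESeq2, with 1 higher and 2 lower at unadjusted p below 0.05. DHCR7, the last enzyme of the pathway, was the member free of overlap, at 13.87 to 21.15 CPM in FL and 21.21 to 56.03 CPM in FL-mut. INSIG1, which retains SREBP in the endoplasmic reticulum, was at 30.5 CPM, 137 CPM and 150 CPM in FL and at 25.3 CPM, 10.2 CPM and 38.3 CPM in FL-mut (-2.08 ± 0.82, edgeR adjusted p = 0.35). FDPS, farnesyl diphosphate synthase, was at 1639 CPM, 2555 CPM and 4722 CPM in FL and at 1306 CPM, 1006 CPM and 2270 CPM in FL-mut (-0.96 ± 0.45, adjusted p = 0.41). The groups overlapped for both genes, and the list median of -0.30 became 0.09 without FL replicate 3. Of 14 tested fatty acid genes, 0 were called by edgeR or DESeq2 (1 in each direction at unadjusted p below 0.05), and the median was 0.63. Without overlap, 3 were higher and 1 lower (8.97% and 9.44% of all tested genes were). ACACA, acetyl-CoA carboxylase, was at 29.1 CPM, 48.5 CPM and 65.8 CPM in FL and at 14.1 CPM, 20.4 CPM and 19.2 CPM in FL-mut (-1.41 ± 0.47, adjusted p = 0.32), while ACSL4, an acyl-CoA synthetase, was at 3.73 to 8.71 CPM in FL and 13.6 to 49.5 CPM in FL-mut (2.16 ± 0.77, adjusted p = 0.33).

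In energy metabolism, list medians lay above 0 for glycolysis and below 0 for cytochrome c oxidase and ATP synthase in every setting tried. In the main fit edgeR called 0 genes of these lists. In other settings some members passed, such as PKM in edgeR with a replicate block (adjusted p = 0.021). Of 17 tested glycolysis genes, 14 were above 0, 4 were higher at unadjusted p below 0.05 and 0 lower (median 0.30, and 0.16 with the GC and length correction). Without overlap, 4 were higher and 1 lower (8.97% and 9.44% of all tested genes were). PKM, pyruvate kinase M, was at 5302 CPM, 2613 CPM and 2315 CPM in FL and at 10250 CPM, 7492 CPM and 10530 CPM in FL-mut (1.47 ± 0.35, edgeR adjusted p = 0.17), and DESeq2 called it. LDHB was at 517.5 to 570.1 CPM in FL and 690.4 to 1087 CPM in FL-mut (0.69 ± 0.25). ALDOA, a glycolytic aldolase, was at 665.9 to 1529 CPM in FL and at 1642 CPM, 5591 CPM and 8343 CPM in FL-mut. Of 14 hypoxia-responsive genes outside glycolysis, 4 were higher without overlap and 0 lower (median 0.53), with the stress-induced NDRG1 at 0 to 29.9 CPM in FL and 36.1 to 90.9 CPM in FL-mut.

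Among the respiratory complexes, subunits lower without overlap were most frequent in cytochrome c oxidase and ATP synthase. Of all tested genes, 9.44% were lower and 8.97% higher without overlap. Of 11 tested nuclear subunits of cytochrome c oxidase, 5 were lower without overlap and 0 higher (median -0.55), and of 15 tested ATP synthase subunits 8 were lower and 1 higher (median -0.53). COX7C was at 2585 CPM, 3240 CPM and 2967 CPM in FL and at 1477 CPM, 1549 CPM and 1438 CPM in FL-mut (-0.98 ± 0.24, edgeR adjusted p = 0.19). ATP5O, a stalk subunit of ATP synthase, was at 711.5 CPM, 629.4 CPM and 905 CPM in FL and at 441.3 CPM, 324.8 CPM and 471.1 CPM in FL-mut (-0.86 ± 0.25, adjusted p = 0.27). NDUFS5, of complex I, was at 1219 to 1232 CPM in FL and 780.9 to 822.1 CPM in FL-mut (-0.62 ± 0.19, adjusted p = 0.27). Complex I was mixed, with 10 subunits lower and 1 higher without overlap of 38 tested, 16 above 0 and 22 below (median -0.13, from -0.25 to -0.0002 over the settings). Complexes II and III had 5 lower and 0 higher without overlap of 14, with 6 above 0 and 8 below, and their median of -0.12 ran from -0.36 to 0.12 over the settings. At unadjusted p below 0.05, 4 cytochrome c oxidase, 7 ATP synthase, 9 complex I and 3 complex II and III subunits were lower, and 2, 1, 8 and 2 were higher. DESeq2 called 3 cytochrome c oxidase, 2 ATP synthase, 4 complex I and 1 complex II and III subunits lower, and NDUFA10 higher. With the GC and length correction the cytochrome c oxidase and ATP synthase medians were -0.60 and -0.53. In SF-mut against SF-Nte, COX7C was -0.54 ± 0.24, ATP5O -0.54 ± 0.25 and NDUFS5 -0.48 ± 0.19, with edgeR unadjusted p of 0.040, 0.043 and 0.021 in that order.

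Among 23 tested replication and S phase genes, edgeR called 0 (4 higher at unadjusted p below 0.05) and DESeq2 RRM2, 5 were higher without overlap and 0 lower, with a median of 0.52 that was 0.11 without FL replicate 3. RRM2, a subunit of ribonucleotide reductase, was at 126.9 CPM, 69.7 CPM and 49.4 CPM in FL and at 274.7 CPM, 371.2 CPM and 265.4 CPM in FL-mut (1.88 ± 0.51, edgeR adjusted p = 0.23). Of 29 tested G2 and mitosis genes, 2 were higher and 3 lower without overlap, shares near those of all tested genes (8.97% and 9.44%), and the median was -0.02. BUB3, of the spindle checkpoint, was at 1810 to 2217 CPM in FL and 530.8 to 1142 CPM in FL-mut (-1.07 ± 0.37). The 19 tested ATF4 amino acid response genes had 0 called by edgeR (8 higher at unadjusted p below 0.05) and 2 by DESeq2 (SLC7A5 and PHGDH), 16 above 0 and a median of 0.84, which was 0.29 without FL-mut replicate 2 and 0.37 with the GC and length correction. PHGDH, of serine synthesis, shows that library: it was at 81.8 to 164.2 CPM in FL and at 88.9 CPM, 2283 CPM and 387.1 CPM in FL-mut.

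Of 10 tested neuronal, progenitor and glial genes edgeR called 0 (2 in each direction at unadjusted p below 0.05), and DESeq2 called NES, FABP7 and SOX4. Without overlap, 1 was higher and 2 lower (8.97% and 9.44% of all tested genes were). SOX4, a progenitor transcription factor, was at 162.3 CPM, 107 CPM and 321.4 CPM in FL and at 39.4 CPM, 37.4 CPM and 62.7 CPM in FL-mut (-2.07 ± 0.55, edgeR adjusted p = 0.22). NES, the intermediate filament nestin, was at 1.39 CPM, 2.49 CPM and 4.84 CPM in FL and at 17.2 CPM, 32.8 CPM and 12.5 CPM in FL-mut (2.81 ± 0.78, adjusted p = 0.26). TCF12, an E-protein that binds E-box DNA, was at 656.1 CPM in FL replicate 1 and 12.5 to 46.5 CPM in the other 5 libraries, and its log2 fold change of -3.16 was -0.06 without that library. Of the 3 tested metallothioneins, which buffer zinc and copper and share near-identical sequences that counting may split, MT1F and MT1X were lower without overlap (-3.36 ± 0.79 and -1.66 ± 0.42) and MT2A higher (0.88 ± 0.33), with edgeR calling 0 and DESeq2 the first pair. The 5 SPANX cancer-testis genes, near-identical copies on the X chromosome, all overlapped between the groups (median 0.46, and -0.18 without FL-mut replicate 1). Of 15 tested nucleotide sugar transporters and Golgi glycosylation genes, SLC35D2 fell, and SLC35B1 was the member higher without overlap, at 73.6 to 88.3 CPM in FL and 92.9 to 223 CPM in FL-mut.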

How the data were processed

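The authors deposited whole-number read counts per gene symbol, not normalised, and the submitters' processing notes name GRCh38. For aligner, counter, annotation and strand the answer is not given in the sources used here. Per the labels, the reads are PCR-amplified cDNA without molecular identifiers, so the bound from 3 counts covers counting error only, and amplification may favour short or GC-rich cDNA. Symbols were matched to GENCODE 29 for positions, length and GC content (97.2% matched).

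The test was edgeR 4.0.16 under R 4.3.3: filterByExpr (minimum count 10, minimum total 15) kept 6767 genes of 18485, TMM scaled the libraries, and all 15 entered a robust quasi-likelihood fit of the 5 group means (10 residual degrees of freedom), with Benjamini-Hochberg adjustment over all tested genes and a threshold of 0.05. A gene that passed is said to have been called, to have risen or to have fallen. Levels are TMM-scaled CPM computed from the counts. The SE is the log2 fold change divided by the square root of F. Groups do not overlap where every library of one lies beyond every library of the other. Groups and replicate numbers came from sample titles. Between replicates, counts differed beyond sampling noise.

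The genes named were ZBTB18, every called gene, the 10 highest and 10 lowest fold changes under the criteria given in the text, and up to 4 members of lowest p from each of 40 lists. The comparison, its lists and this rule were chosen with earlier results of these data known. Alternatives were other size factors, DESeq2 1.42.0, other low-count filters, fewer libraries, no robust dispersion, a replicate block, a GC and length correction as gene-wise offsets and each library left out. List medians under these settings were added after seeing the data. The fits were tested on simulated data.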

Additional observations from a re-analysis of the deposited data

Results flagged for a closer look

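The effect of the mutation differed between the full-length and the short form for S100A6 and HMGN3, by the interaction term of the edgeR fit. For S100A6 the difference in log2 fold change was 1.95 ± 0.31 (adjusted p = 0.043), with all 3 FL-mut libraries above all 3 FL libraries and overlap between SF-mut and SF-Nte. For HMGN3 it was 2.57 ± 0.39 (adjusted p = 0.039), with the same pattern of libraries. Neither difference is firm: with the GC and length correction S100A6 did not pass (1.76, adjusted p = 0.89) while HMGN3 did (2.61, adjusted p = 0.016), and of 12 fits that each left out 1 library S100A6 passed in 1 and HMGN3 in 2 (adjusted p up to 0.208 and 0.204). Libraries of the short form are shallower, and SF-mut, whose barcode names carry a suffix that SF-Nte lacks, may have been handled apart, which cannot be told apart from the mutation within the short form. ZBTB18 also lay higher in SF-mut (853 to 3631 CPM) than in SF-Nte (199.5 to 470 CPM), and the part of this difference was not tested.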

How the results depend on the processing

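The number of genes called between FL-mut and FL moved most with the tool and the filter. DESeq2 called 116 (62 higher, 54 lower), and edgeR with no low-count filter 348 (289 higher, 59 lower), both including the 6 genes. With the 6 libraries alone edgeR called 0 in either direction (lowest adjusted p 0.135), and with 9 libraries of EV, FL and FL-mut also 0 (lowest 0.0506). These fits had fewer libraries to set the spread and also tested other numbers of genes, 5824 and 7252. Which of these mattered was not tested. Leaving out 1 library gave 2 to 8 called genes, 2 to 6 higher and 0 to 2 lower. S100A6 and HMGN3 passed in each of these 6 fits, LGALS1 in 4, and ZMYM3, SLC35D2 and S100A16 in 2 each. With DESeq2 size factors S100A16 was lost and 5 genes remained.

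Interaction calls were 8 with DESeq2 (4 higher, 4 lower), 49 with no filter (26 higher, 23 lower), 1 with the GC and length correction (1 higher), and 0 to 1 without 1 library (0 to 1 higher, 0 lower). Fits without 1 library turned the sign of some values that had not passed, which ran from 0.0000 (without FL replicate 3) to -4.49 for FDXR, from -0.18 (without FL-mut replicate 1) to 0.82 for SPANXA1 and SPANXA2, 0.71 for SPANXD and, from -0.35, 0.79 for SPANXC, from -0.089 (without FL-mut replicate 2) to 2.89 for CDK2, and from -3.80 (without FL-mut replicate 3) to 5.95 for ZMYM2. Of 35 list medians, added after seeing the data, 18 kept their sign in every setting (14 above 0, 4 below), the S100 list between 0.83 and 1.54. The cause of the other moves was not tested.

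The replicate block called 7 genes, the 6 and PKM (1.55, adjusted p = 0.021), and 5 with the GC and length correction. Same-number libraries of FL and FL-mut had deviation correlations of 0.209, 0.0599 and 0.0259 over 2082 genes, so the numbers were not taken to pair them. Depth limits genes such as ZMYM3, whose call rests on 10 to 43 counts in FL.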

Other observations

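In 5 other lists, edgeR and DESeq2 called 0 genes between FL-mut and FL, and those at unadjusted p below 0.05 numbered 4 proteasome (all higher), 3 MYC and G1 (all higher), 7 antioxidant (4 higher), 4 interferon (2 higher) and 5 lysosomal genes (4 higher). Of 30 tested proteasome subunits, 7 were higher without overlap and 2 lower (8.97% and 9.44% of all tested genes were), and the median was 0.05. PSMC3, an ATPase of the proteasome cap, was at 119 to 243.4 CPM in FL and at 287.8 CPM, 1041 CPM and 463 CPM in FL-mut (1.60 ± 0.54, edgeR adjusted p = 0.32). Of 12 tested MYC and G1 control genes, 4 were higher without overlap and 3 lower. MYC was at 9.02 to 11.2 CPM in FL and 17.7 to 78.1 CPM in FL-mut (1.95 ± 0.60, adjusted p = 0.28), and the cell cycle inhibitor CDKN1A was at 0 to 19.9 CPM in FL and 20.2 to 86.02 CPM in FL-mut (2.74 ± 1.14).

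Of 18 tested antioxidant genes of the NRF2 type, 9 were above 0 and 9 below. SQSTM1, an autophagy adaptor, was at 1881 CPM, 2543 CPM and 1086 CPM in FL and at 979.6 CPM, 769.6 CPM and 405.5 CPM in FL-mut (-1.35 ± 0.52, edgeR adjusted p = 0.34). Among 14 tested interferon response genes, IFIT1, an antiviral RNA-binding protein, was at 9.95 to 13.6 CPM in FL and 0 to 5.16 CPM in FL-mut (-2.10 ± 0.86), while HLA-C, an antigen-presenting molecule with near-identical relatives, was at 32.3 to 69.7 CPM in FL and 72.7 to 270.5 CPM in FL-mut (1.60 ± 0.72). The 24 tested lysosomal genes had a median of 0.36, which was 0.14 with the GC and length correction.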
